A study of Arabidopsis thaliana with 12 samples.

Results

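The loss of DET1 function in dark-grown seedlings was read from a single deposited table, which sets the mutant det1-1 against the wild type Columbia (Col) of Arabidopsis thaliana. A gene was taken when it had a name and a single entry in that table, when both groups were above 0, and when the higher group reached 1 FPKM (a count of sequenced fragments divided by transcript length and by library size). Of 30039 genes with a single entry, 16968 met these conditions. Both groups were whole seedlings, 4 days old, sampled after 4 days of growth in darkness. Before that, the seeds had been held at 4 °C for 3 days and given 12 h of light. Each group had 3 RNA-seq libraries, and the study also holds libraries of other conditions. The labels give no further allele or treatment for either group. The table carries a single FPKM per gene and group, so the spread between the 3 libraries and the sequencing depth are unknown, and no difference below has a replicate check, an error or a p-value. In their place a gene is called higher or lower when its FPKM in det1-1 differed from that of wild type by at least 2-fold, which is a log2 ratio of 1. Where a pair of levels is joined by "to", the first is wild type and the second is det1-1.

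A seedling that germinates under soil grows by skotomorphogenesis: the hypocotyl elongates, the apical hook stays closed and the plastids remain etioplasts, which lack thylakoids. DET1 belongs to a small nuclear complex with COP10 and DDB1 that works with CUL4 ubiquitin ligases and, together with COP1-SPA and the COP9 signalosome, holds back photomorphogenesis until light arrives. Mutants such as det1-1, a partial loss-of-function point allele, open their cotyledons and express light-regulated genes in the dark. The transcript of DET1 itself (AT4G10180, plus strand of chromosome 4, bases 6346411 to 6349314 in TAIR10.1) was listed at 15.1 FPKM in wild type, against 16.7 FPKM in the mutant. A point allele need not change the transcript level, so this value does not check the label.

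In total, 3022 genes (17.8%) were at least 2-fold higher in det1-1 and 1589 (9.36%) at least 2-fold lower, and 12357 lay between. The ratios were wider on the high side: 1207 genes were at least 4-fold higher and 286 at least 4-fold lower, 433 against 51 differed by at least 10-fold, and 148 against 19 by at least 30-fold. The median log2 ratio of all analysed genes was -0.01, with 90% of the genes between -1.34 and 2.40. The higher genes were mostly low in the dark wild type, with a median of 4.48 FPKM that compares with 17.8 FPKM in det1-1, whereas the lower genes went from a median of 13.9 to 4.75 FPKM. Part of the first pattern is set by the minimum of 1 FPKM. In wild type, 373 of the higher genes were under 0.5 FPKM and could enter the analysis only by being higher. In det1-1, 114 of the lower genes were under 0.5 FPKM and could enter only by being lower. This holds for every analysed gene named below that was under 0.5 FPKM in either group. Among genes with a mean of at least 100 FPKM, where the minimum has no effect, 23.5% were higher and 9.67% lower. The 2-fold line passes through a continuous distribution: 276 genes had a log2 ratio from 1 to 1.1 and 322 from 0.9 to 1, and on the low side 267 lay just past the line and 344 just short of it. At the minimum, 150 genes had 1 to 1.1 FPKM in the higher group and 173 had 0.9 to 1 FPKM.

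FPKM is a share of the library, and the analysed genes held 74.5% of the FPKM sum of all entries in wild type but 95.6% in det1-1. Within the analysed genes, those of 9 photosynthesis lists held 1.61% of the sum in wild type and 7.89% in det1-1. With 8 further members that are listed at 0 in a single group, the wild type share was 2.54% and that of det1-1 was again 7.89%. When det1-1 was rescaled so that the sums of analysed genes outside the photosynthesis lists matched, every log2 ratio moved by -0.18. The genes outside include the plastid gene ATCG00020, which had the largest gain in FPKM and is in none of the lists. With this rescaling 2532 genes were higher and 2240 lower. The share of calls that were higher was then 53.1% in place of 65.5%. A rescaling on the upper quartile moved every ratio by -0.11 and gave 58.2%. The median of 8 gene lists described below changes sign under one of these rescalings, and none of the 8 was further than 0.16 from 0: DNA repair, carbon starvation, iron, copper and zinc, mitochondrial alternative respiration, partners of photoreceptors, seed oil, sulfate assimilation, and wax and cutin. Entries without a gene name made up 15.3% of the FPKM sum of all entries in wild type and 1.79% in det1-1, most of it a single entry of 136024 FPKM in wild type that is listed at 0 in det1-1.

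**Figure D1:**
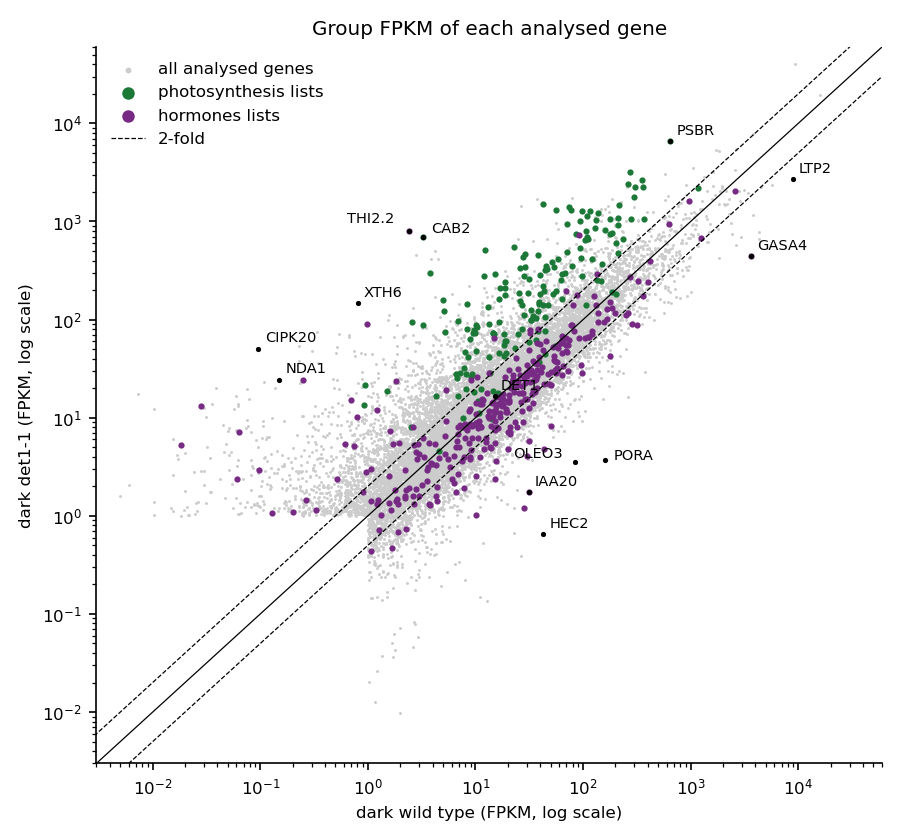
FPKM of each of the 16968 analysed genes in dark wild type (x axis, log scale) and dark det1-1 (y axis, log scale), with 164 genes of the photosynthesis lists in green, 317 of the hormone lists in purple, and labelled genes in black. The solid line marks equal levels and the dashed lines 2-fold. The green points lie almost entirely above the upper dashed line (142 of 164), whereas 60 hormone genes lie on or below the lower one and 37 on or above the upper one.

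The promoter sequences of 5 genes are shown because these genes stand at the ends of the distribution: CAB2 and LHB1B1 are the antenna genes with the largest ratios, FLS1 has the largest ratio among flavonoid genes of at least 5 FPKM, and GRF7 and HEC2 have the lowest ratios of all genes of at least 20 FPKM. Each is the stretch of 250 bases before the annotated start, read 5′ to 3′ on the strand of the gene from the RefSeq assembly TAIR10.1. Capitals mark a match to any of 8 short motifs searched on both strands. The G-box is written CACGTG. The form of the E-box that PIFs are known to bind is CACATG. The motif known for factors of the GATA class is GATAAG. The evening element of clock-regulated genes is AAAATATCT. For bZIP factors the search used ACGTGGC, which can overlap the G-box. For the abscisic acid response it used ACGTGTC, which can overlap the G-box as well. The telobox of ribosome genes is AAACCCTA. For TCP factors the site was written GGNCCCAC.
CAB2, chr1:10475970-10476219, minus strand: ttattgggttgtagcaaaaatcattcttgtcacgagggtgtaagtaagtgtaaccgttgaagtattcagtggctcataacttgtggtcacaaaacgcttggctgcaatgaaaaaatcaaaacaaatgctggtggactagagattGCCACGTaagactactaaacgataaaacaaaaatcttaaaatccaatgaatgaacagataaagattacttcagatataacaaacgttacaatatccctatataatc
LHB1B1, chr2:14524357-14524606, plus strand: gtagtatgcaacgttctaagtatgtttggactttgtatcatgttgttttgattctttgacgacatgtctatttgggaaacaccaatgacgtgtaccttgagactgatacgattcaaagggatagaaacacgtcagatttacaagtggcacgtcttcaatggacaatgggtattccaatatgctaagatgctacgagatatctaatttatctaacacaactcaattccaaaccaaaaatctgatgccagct
FLS1, chr5:2803583-2803832, plus strand: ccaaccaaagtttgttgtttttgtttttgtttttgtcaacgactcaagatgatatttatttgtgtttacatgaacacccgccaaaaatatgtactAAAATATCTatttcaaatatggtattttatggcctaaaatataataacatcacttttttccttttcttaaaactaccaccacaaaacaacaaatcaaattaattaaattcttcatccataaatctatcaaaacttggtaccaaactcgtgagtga
GRF7, chr5:21793927-21794176, plus strand: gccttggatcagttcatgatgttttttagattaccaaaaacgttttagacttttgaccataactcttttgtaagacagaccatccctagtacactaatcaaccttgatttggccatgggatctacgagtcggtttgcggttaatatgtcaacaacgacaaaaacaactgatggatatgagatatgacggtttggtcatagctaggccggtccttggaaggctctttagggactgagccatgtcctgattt
HEC2, chr3:18658378-18658627, minus strand: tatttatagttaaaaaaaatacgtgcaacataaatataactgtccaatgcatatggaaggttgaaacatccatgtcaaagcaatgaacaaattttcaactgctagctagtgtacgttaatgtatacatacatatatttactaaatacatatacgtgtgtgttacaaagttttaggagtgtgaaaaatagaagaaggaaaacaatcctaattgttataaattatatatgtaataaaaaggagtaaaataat
CAB2 holds a single match, GCCACGT, which is ACGTGGC read on the other strand, 106 bases before the start. FLS1 holds AAAATATCT at 155 bases before the start. LHB1B1, GRF7 and HEC2 hold none of the 8, which says only that these letters are not in this window.

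Over all 27443 promoters of protein-coding genes in that assembly, 6.49% held CACGTG, 11.1% CACATG, 12.3% GATAAG, 2.36% AAAATATCT, 3.37% ACGTGGC, 3.68% ACGTGTC, 4.49% AAACCCTA and 1.09% GGNCCCAC. The 2894 promoters of higher genes were close to the 12072 promoters of genes under 2-fold for CACGTG, at 7.64% and 7.67%. In contrast, 9 of the 40 promoters of antenna and photosystem genes held CACGTG (22.5%, exact 95% interval 10.8% to 38.5%), and 8 of the 40 held each of ACGTGGC, the abscisic acid element ACGTGTC and the GATA motif. The E-box CACATG was in 15.7% of the 1487 promoters of lower genes (13.9% to 17.6%), in 10.5% of those of higher genes (9.41% to 11.7%) and in 11.0% of those under 2-fold. AAACCCTA was in 4.98% of promoters of higher genes (4.21% to 5.83%), 3.26% of those under 2-fold and 2.62% of those of lower genes (1.87% to 3.57%). Among genes at least 4-fold higher its share was 3.82% (2.79% to 5.09%), against 3.50% of all analysed genes. These intervals cover counting error only, the motifs were searched with the ratios known, and a match describes letters and not a bound site.

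Gene functions are described by 79 lists drawn from textbook knowledge, with 1651 analysed members, of which 538 were higher and 169 lower. Of the 15317 genes in no list, 2484 were higher and 1420 lower. Photosynthesis genes were almost all on the high side, and no member of the 9 lists was called lower. Of 164 genes, 142 were higher, with a median log2 ratio of 2.33. The antenna proteins bind chlorophyll and pass light energy to the photosystems; 16 of 17 were higher (median 3.63). CAB2 (AT1G29920, minus strand of chromosome 1, bases 10474656 to 10475969) went from 3.23 to 687 FPKM, a 213-fold difference, LHB1B1 from 3.79 to 297 FPKM and LHCB2.1 from 12.3 to 509 FPKM. The single antenna gene under 2-fold was LHCB4.3, at 10.6 and 14.9 FPKM. Several antenna genes share long identical stretches (30.3% of CAB2 and 22.9% of LHB1B1 occur elsewhere in the genome), and without repeated genes the antenna median was 2.89. CAB1, the tandem neighbour of CAB2, was listed at 1285 FPKM in wild type and at 0 in det1-1. The same holds for the small Rubisco subunit genes RBCS1A (3398 FPKM), RBCS3B (2095 FPKM) and RBCS2B (264 FPKM), and an exact 0 of that kind can be a failed estimate. Those genes are not among the analysed ones.

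All 23 nuclear photosystem subunits were higher (median 2.88). PSBR, a small subunit near the oxygen-evolving complex (AT1G79040, plus strand of chromosome 1, bases 29735952 to 29737009), had the largest gain in FPKM of any nuclear gene, from 648 to 6605 FPKM. PSAK went from 70.2 to 945 FPKM and PSAF from 137 to 1217 FPKM, whereas the second copies PSAD-2 and PSAE-2 differed less, from 97.3 to 281 FPKM and from 236 to 669.5 FPKM. Electron carriers and ATP synthase subunits were higher in 14 of 18 (median 2.47). Both leaf ferredoxin-NADP reductases were among them, FNR2 from 15.2 to 290.2 FPKM and FNR1 from 25.8 to 333 FPKM, and so was ferredoxin FED A (264 to 2409.8 FPKM). FD3, the ferredoxin typical of roots, stood at 204 and 182 FPKM. The NDH complex of thylakoids, which returns electrons from ferredoxin to plastoquinone, was higher in 16 of 18 (median 1.99). NdhU went from 2.55 to 94.2 FPKM, NdhT from 0.915 to 13.5 FPKM and PnsL3 from 5.16 to 75.5 FPKM, and NdhS stood at 54.7 and 54.1 FPKM.

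Factors that build and repair the photosystems followed the subunits. Of 25 assembly factors, 20 were higher (median 1.95), led by PSB28 (12 to 276 FPKM), HCF244 (18.8 to 242 FPKM), TLP18.3 (16.7 to 164 FPKM) and PSB27 (86.4 to 737 FPKM), all of which act on photosystem II. HCF101, an iron-sulfur scaffold for photosystem I, stood at 44.2 and 44.1 FPKM. Among 21 thylakoid proteases and kinases, 19 were higher (median 1.95). The FtsH proteases that remove damaged D1 protein were FTSH1 (6.82 to 96.1 FPKM), VAR1 (25.6 to 188 FPKM) and VAR2 (39.8 to 288 FPKM), and STN7, the kinase of state transitions, went from 8.35 to 80.6 FPKM. Photoprotection genes were higher in 9 of 10 (median 2.59). ELIP1 and ELIP2, which bind pigments released during greening, went from 3.23 to 89.1 FPKM and from 5.05 to 123 FPKM, and KEA3, a thylakoid potassium/proton exchanger, from 0.942 to 21.7 FPKM.

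Carbon fixation and its side reactions were also higher. In the Calvin cycle 11 of 15 genes passed 2-fold (median 2.15), among them FBA2 (116 to 1288 FPKM) and EMB3119 (9.44 to 73.6 FPKM), and 5 further members were listed at 0 in a single group. CP12-1, a regulator of the cycle and the highest analysed member in the dark, went from 1167 to 2194 FPKM and stayed under 2-fold. Photorespiration recycles the product of Rubisco's reaction with oxygen through peroxisomes and mitochondria, and 16 of 19 of its genes were higher (median 1.92). SHM1, the mitochondrial serine hydroxymethyltransferase, went from 22.9 to 554 FPKM, GGT1, the peroxisomal glutamate:glyoxylate aminotransferase, from 55.7 to 1303 FPKM, and glycolate oxidase GOX1 from 106 to 804 FPKM. The third glycolate oxidase gene, GOX3, stood at 14.4 and 9.66 FPKM. Higher transcripts for this pathway thus covered enzymes of the peroxisome and mitochondrion as well as of the plastid.

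**Figure D2:**
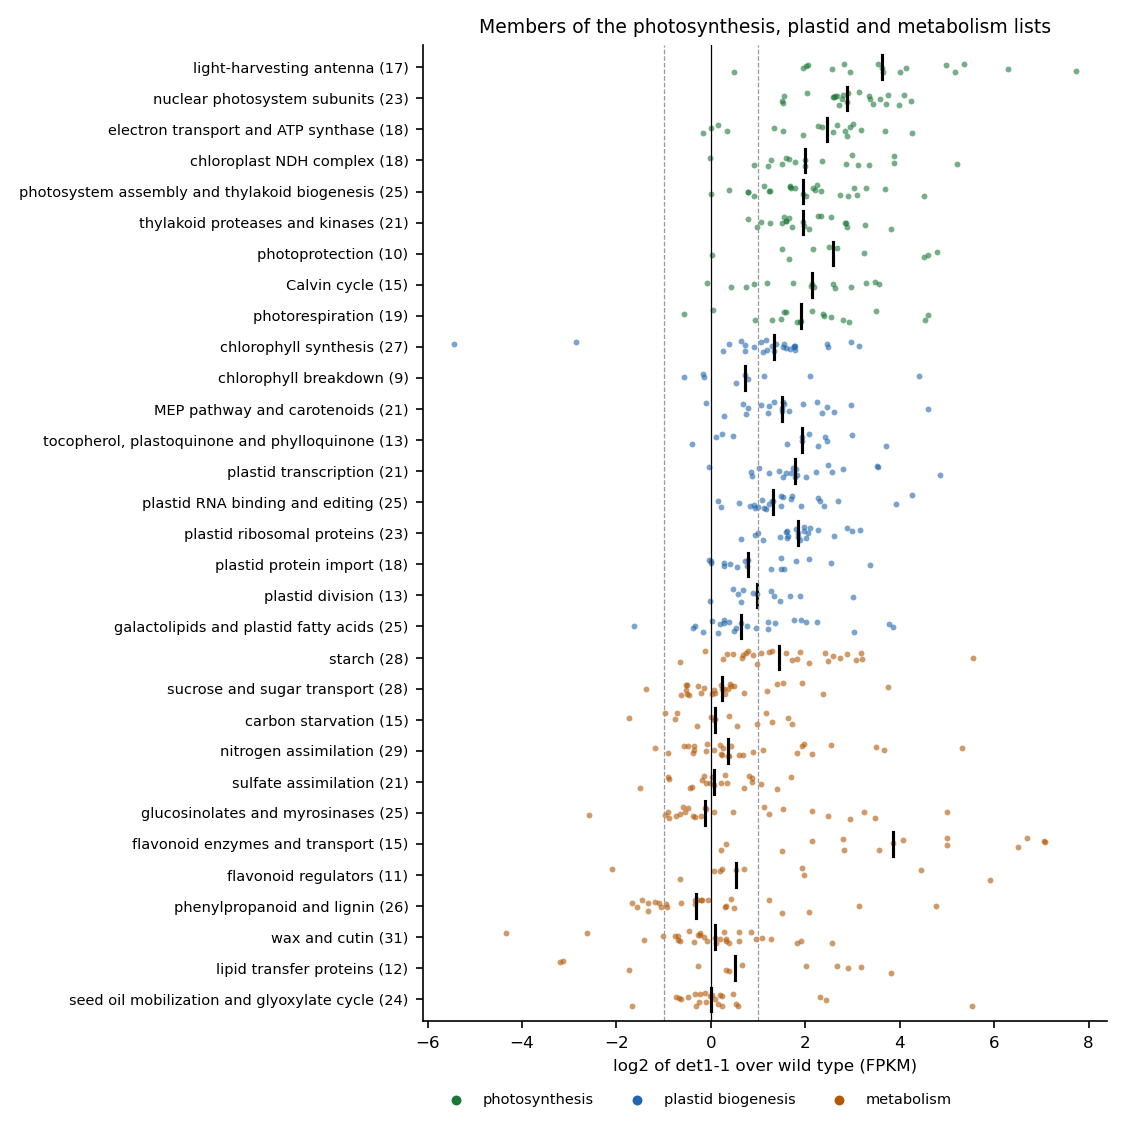
Log2 ratio of det1-1 over wild type (x axis) for each analysed member (point) of the photosynthesis, plastid and metabolism lists, with the number of members in brackets. Thick bars are list medians and dashed lines mark 2-fold. The medians run from 3.63 for the antenna to 1.92 for photorespiration in the photosynthesis lists, and most metabolism lists are centred near 0.

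Plastid biogenesis genes were higher in 128 of 195 and lower in 3 (median 1.47). Chlorophyll synthesis had members at both ends: 19 of 27 were higher and 2 lower. The lower pair were the protochlorophyllide reductases of etioplasts, PORA (161 to 3.72 FPKM) and PORB (214 to 29.7 FPKM). The others followed the route from glutamate to chlorophyll, with HEMA1, the first committed enzyme, at 22.2 to 75 FPKM, CRD1, the cyclase subunit, at 199 to 690.3 FPKM and G4, chlorophyll synthase, at 12.9 to 70.9 FPKM. Chlorophyll breakdown was higher in 3 of 9, with chlorophyllase CLH2 from 1.06 to 22.4 FPKM. The plastid MEP and carotenoid pathways were higher in 16 of 21 (median 1.51), with ISPF from 9.43 to 57.3 FPKM. Tocopherol, plastoquinone and phylloquinone genes were higher in 9 of 13 (median 1.94), led by the plastoglobule fibrillin FIB (6.71 to 87.9 FPKM) and tocopherol cyclase VTE1 (2.55 to 20.3 FPKM). PDS1, which makes the shared precursor homogentisate, stood at 208 and 158 FPKM.

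The machinery of the plastid genome was higher at each step. Of 21 genes of plastid transcription, 18 were higher (median 1.78), among them PRIN2 (7.32 to 51.4 FPKM) and SIG2 (17.8 to 106 FPKM), which directs transcription of plastid tRNA genes. RNA-binding and editing factors were higher in 19 of 25 (median 1.31). CRB and CSP41A, a pair of proteins that stabilize plastid transcripts, went from 15 to 287 FPKM and from 12.5 to 190.1 FPKM, and HCF152 from 2.64 to 13.9 FPKM. Plastid ribosomal proteins and translation factors were higher in 20 of 23 (median 1.86), with the elongation factor SCO1 from 23 to 205 FPKM and PRPL11 from 45.7 to 339 FPKM. In the wider set of pentatricopeptide repeat proteins, which mostly act on organelle RNA, 65 of 150 were higher and 0 lower (median 0.90), but 21 of those 65 were so low in wild type that only a higher level could admit them. The median of that family was 0.55 with 1 FPKM added to both groups.

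Import and division had smaller shares of higher genes than expression of the plastid genome. Protein import was higher in 8 of 18 (median 0.78), and the members past 2-fold were translocon components of the inner envelope and stromal chaperones: TIC55-II went from 5.46 to 56.5 FPKM, Tic62 from 3.44 to 20.1 FPKM and the chaperone cpHsc70-2 from 19.2 to 81.5 FPKM. The outer envelope receptors TOC159 (77 and 77.1 FPKM) and TOC132 (24.6 and 24.8 FPKM) stood at nearly equal levels. Plastid division was higher in 6 of 13 (median 0.97), with the ring protein FTSZ1-1 from 3.56 to 28.8 FPKM and the dynamin ARC5 from 5.73 to 21.4 FPKM. Galactolipid and plastid fatty acid genes were higher in 10 of 25 and lower in 1 (median 0.63). Those past 2-fold included acyl carrier protein ACP4 (46 to 666 FPKM) and the desaturases FAD5 (15.2 to 209 FPKM), FAD6 (58.7 to 238 FPKM) and FAD7 (27.9 to 105 FPKM) that act in the plastid. FAD2 and FAD3 of the endoplasmic reticulum were at 509 and 664 FPKM and at 87.1 and 122 FPKM.

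Flavonoid enzymes had the highest median of any list, 3.86, with 13 of 15 higher. FLS1, flavonol synthase (AT5G08640, plus strand of chromosome 5, bases 2803833 to 2805606), went from 0.535 to 71.2 FPKM, F3H from 0.669 to 69.6 FPKM and the chalcone isomerase-like CHIL from 2.2 to 69.9 FPKM. Of the 13, 5 could be analysed only because they were higher, and the median was 1.77 with 1 FPKM added to both groups and 1.07 with 5 FPKM added. Among the flavonoid regulators, 4 of 11 were higher and 1 lower, with the flavonol activator MYB12 from 0.342 to 7.48 FPKM and the repressor MYBL2 from 41.5 to 164 FPKM. Of the 4, 2 could be analysed only because they were higher, MYB12 among them, and the lower gene only because it was lower. The phenylpropanoid and lignin list split instead, with 5 of 26 higher and 8 lower (median -0.32). Its higher members included 4CL3 (0.523 to 14.2 FPKM), the isoform of the flavonoid branch, and FAH1 (7.38 to 64.8 FPKM), which leads to sinapate esters. Its lower members included the laccases LAC17 (45.6 to 14.4 FPKM) and LAC11 (64.8 to 21.9 FPKM), which polymerize monolignols, CAD5 (183 to 84.9 FPKM) and the lignin activators MYB63 (3.95 to 1.56 FPKM) and MYB58 (2.54 to 0.928 FPKM).

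Starch genes were higher in 17 of 28 and lower in 0 (median 1.44, and 0.73 with 5 FPKM added). Both directions of starch turnover were covered: ADG1 and APL1, subunits of the ADP-glucose pyrophosphorylase that starts synthesis, went from 9.07 to 82.2 FPKM and from 13.4 to 89.1 FPKM, and the plastid amylases CT-BMY and AMY3 from 0.941 to 44.3 FPKM and from 4.29 to 36.1 FPKM. Sucrose and sugar transport genes were higher in 6 of 28 and lower in 1. APE2, the triose phosphate/phosphate translocator, went from 64.7 to 337 FPKM, and the sucrose exporter SWEET11 from 573 to 221 FPKM. Nitrogen assimilation was higher in 9 of 29 and lower in 1 (median 0.36). ASN2, an asparagine synthetase, went from 4.25 to 170.5 FPKM, the ammonium transporter AMT1;2 from 1.77 to 22.7 FPKM, nitrate reductase NIA2 from 68.5 to 301 FPKM and nitrite reductase NIR1 from 65.1 to 248 FPKM. Genes that mobilize seed oil stayed near wild type, with 3 of 24 higher and 1 lower and a median of 0.00. PCK1, phosphoenolpyruvate carboxykinase of gluconeogenesis, was the lower one, from 521 to 163 FPKM. Wax and cutin (5 higher, 4 lower of 31) and sulfate assimilation (3 higher, 1 lower of 21) were likewise mixed, and carbon starvation had 4 of 15 higher and 1 lower. Glucosinolate genes were higher in 9 of 25 and lower in 1 with a median of -0.13, and the higher ones included the epithiospecifier modifier ESM1 (2.14 to 68.8 FPKM) and the myrosinase TGG1 (118 to 522 FPKM), which act in breakdown.

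Photoreceptor transcripts did not share a direction: 4 of 14 were higher and 0 lower, with a median of 0.37. CRY3, a cryptochrome of plastids and mitochondria (AT5G24850, minus strand of chromosome 5, bases 8535258 to 8538211), differed most, from 1.25 to 25.2 FPKM. The others past 2-fold were FKF1, a blue-light F-box protein of flowering (1.4 to 13 FPKM), the phototropin PHOT2 (10.02 to 39.6 FPKM) and PHYE (2.22 to 5.59 FPKM). PHYA, the phytochrome that accumulates in darkness and the highest of the list, went from 217 to 123 FPKM, which is short of 2-fold. CRY1, CRY2, PHYB, PHOT1 and UVR8 were also under 2-fold.

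Among their partners, 4 of 12 were higher and 2 lower. RUP2 and RUP1, which return the UV-B receptor UVR8 to its inactive form, went from 2.29 to 50.8 FPKM and from 10.001 to 37.5 FPKM, and RPT2, a phototropin signalling protein, from 17.3 to 119 FPKM. The lower pair, FHY1 (52.4 to 13.7 FPKM) and its paralog FHL (11.9 to 4.9 FPKM), carry PHYA into the nucleus. Of the repressors themselves, 3 of 18 genes of the DET1, COP1-SPA and COP9 signalosome complexes were higher and 0 lower (median 0.38). The shares over all analysed genes were 17.8% and 9.36%. Those 3 were the COP1 partners SPA1 (4.81 to 26 FPKM), SPA3 (2.48 to 8.93 FPKM) and SPA4 (2.86 to 8.21 FPKM). COP1 stood at 13.6 and 21.6 FPKM, DDB1A at 23.9 and 20.2 FPKM and CUL4 at 31.8 and 34.8 FPKM. The 3 analysed genes of H2B ubiquitination, which DET1 is known to affect, were all under 2-fold, with HUB1 at 6.93 and 6.498 FPKM, HUB2 at 10.2 and 8.52 FPKM and UBC2 at 168 and 170.3 FPKM.

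The B-box zinc finger factors work with HY5 in light signalling, some as activators and some as inhibitors. Of 16 genes in the list of HY5 and B-box factors, 7 were higher and 2 lower. Among them, 2 higher genes (STH and BBX32) and 1 lower gene (bbx23) could be analysed only in that direction. HY5 itself stood at 27.4 and 35.05 FPKM. STH, also known as BBX25, went from 0.342 to 36.02 FPKM, BBX30 from 0.761 to 42.5 FPKM, BBX32 from 0.127 to 9.99 FPKM and BBX31 from 0.874 to 20.3 FPKM, whereas BBX21, the highest of the list, went from 215 to 89.6 FPKM. Of 11 greening regulators, 6 were higher and 0 lower (median 1.14), and 1 of the 6, CGA1, could be analysed only because it was higher. The GATA factor CGA1 went from 0.0948 to 5.09 FPKM while its paralog GNC stood at 11.4 and 6.77 FPKM, and the chloroplast activator GLK2 went from 15.3 to 37.9 FPKM. In the list of PIFs and shade-induced factors, 3 of 24 were higher and 8 lower (median -0.64). All 3 higher genes were PIFs: PIF4 (10.4 to 33.2 FPKM), PIF5 (listed as PIL6, 8.96 to 31.5 FPKM) and PIF7 (0.422 to 10.5 FPKM), of which PIF7 could be analysed only because it was higher. PIF1, listed as PIL5, stood at 15.8 and 16.1 FPKM and PIF3 at 28.1 and 14.6 FPKM, just short of 2-fold. The lower members were led by the helix-loop-helix genes HEC2 (AT3G50330, minus strand of chromosome 3, bases 18656955 to 18658377; 42.6 to 0.647 FPKM), KDR (187 to 29.3 FPKM), PRE1 (18.8 to 3.81 FPKM) and PRE5 (8.05 to 1.73 FPKM), of which the last 3 are short atypical members that promote elongation.

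**Figure D3:**
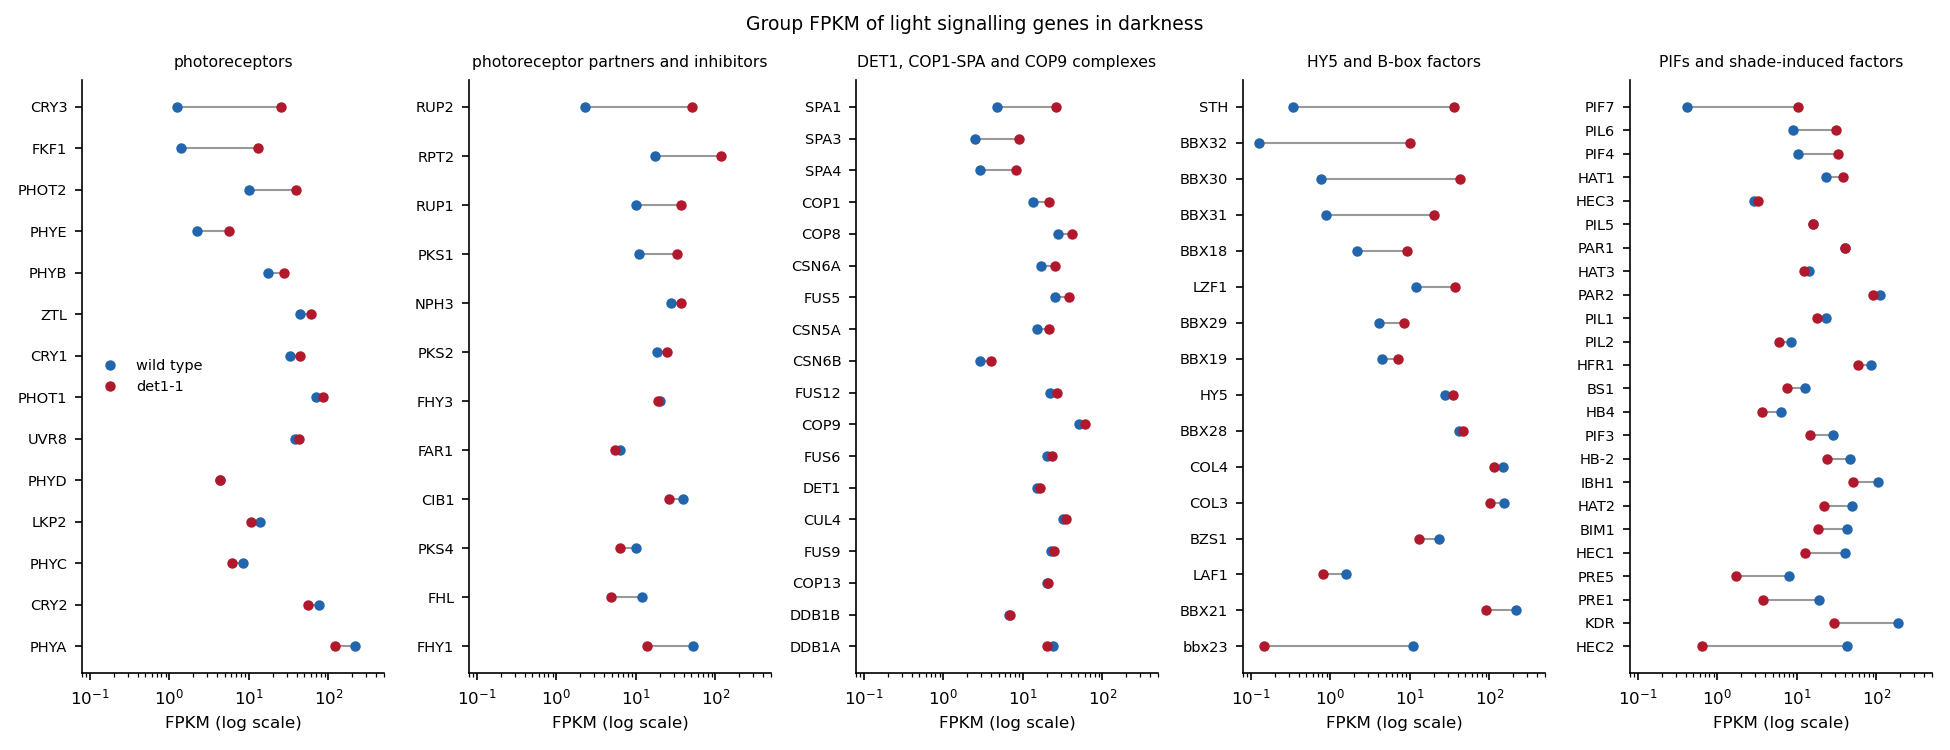
FPKM (x axis, log scale) of each analysed member of 5 light signalling lists in dark wild type (blue) and dark det1-1 (red), sorted by ratio within each panel. CRY3 (1.25 to 25.2 FPKM) and RUP2 (2.29 to 50.8 FPKM) head their panels, the core repressor genes DET1, CUL4 and DDB1A show nearly overlapping points, and HEC2 and bbx23 lie at the lower ends of their panels.

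The circadian clock list was higher in 14 of 36 and lower in 1 (median 0.55). Of the 14, PRR9 could be analysed only because it was higher. Daytime pseudo-response regulators were among the higher members, PRR9 from 0.403 to 6.38 FPKM and PRR5 from 3.41 to 23.4 FPKM, and so were the morning genes LHY (13.2 to 33.4 FPKM) and CCA1 (11.7 to 29.3 FPKM), the evening gene ELF4 (15.7 to 66.5 FPKM) and CDF1 (1.32 to 6.74 FPKM), which represses flowering genes in the morning. TOC1, an evening gene, stood at 36.3 and 36.9 FPKM. BOA, a MYB gene related to LUX of the evening complex, was the single lower member (25.9 to 9.67 FPKM). Genes of both phases were thus among the higher ones, and a single sampling time for each group does not separate a level from a phase.

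Hormone genes leaned the other way, with 37 of 317 higher and 60 lower (median -0.34), against 17.8% and 9.36% of all analysed genes. Abscisic acid and dehydration genes were lower in 10 of 37 and higher in 6 (median -0.59). NCED3, the enzyme that sets the rate of abscisic acid synthesis under drought, went from 15.6 to 3.65 FPKM, the phosphatases HAI1 and ABI1, which restrain the response, from 20.01 to 4.77 FPKM and from 72.7 to 29.996 FPKM, and the dehydration gene LTI65 from 287 to 89.2 FPKM. The receptor genes PYL6 (0.696 to 15.1 FPKM), PYL4 (68.7 to 196 FPKM) and PYL5 (37.7 to 80.6 FPKM) were higher. Auxin transport genes were lower in 5 of 21 and higher in 2 (median -0.56). The lower ones included the kinases WAG2 (49.9 to 8.31 FPKM), WAG1 (21 to 6.79 FPKM) and PID (6.65 to 1.76 FPKM), which phosphorylate PIN carriers, whereas PIN3 stood at 65.6 and 57.5 FPKM and PIN7 at 68.7 and 64.9 FPKM. Of 35 Aux/IAA repressors and ARF factors, 6 were lower and 1 higher. IAA20 (31.2 to 1.75 FPKM) and IAA2 (249 to 112 FPKM) were among the lower members, and the shade-induced IAA29 was the higher one (13.2 to 28.3 FPKM).

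Gibberellin genes were lower in 7 of 22 and higher in 3 (median -0.27), and 2 of the 3 could be analysed only because they were higher. The biosynthetic oxidase GA20OX1 (7.77 to 1.93 FPKM), the DELLA gene RGL1 (20.8 to 7.1 FPKM) and the receptor gene GID1B (13.7 to 4.99 FPKM) were lower, so the lower members lay at several levels of the pathway. Ethylene and hook genes were lower in 4 of 28 and higher in 3 (median -0.45). HLS1, which is needed for the apical hook, went from 10.2 to 1.03 FPKM. ACC oxidase genes, which make ethylene, differed in direction: EFE went from 92.5 to 721 FPKM and AT1G77330 from 179.5 to 42.3 FPKM. Cytokinin genes were mostly under 2-fold, with 4 of 33 higher and 3 lower, and LOG5, which releases active cytokinin, went from 31.7 to 5.79 FPKM. Brassinosteroid genes had 2 of 24 higher and 4 lower (median -0.36), with the inactivating enzymes DOGT1 (1.81 to 23.8 FPKM) and CYP72C1 (26.9 to 11.7 FPKM) on opposite sides. Of 22 SAUR genes, which promote cell expansion, 1 was higher and 5 lower, with AT4G13790 from 28.1 to 1.19 FPKM and SAUR9 from 15.3 to 2.36 FPKM. Auxin synthesis and conjugation had 1 of 16 higher, TAR2 (1.71 to 5.41 FPKM), and 3 lower, among them WES1 (64 to 27.4 FPKM), which conjugates auxin to amino acids. Of 11 strigolactone and karrikin genes 2 were higher, one of them the receptor gene KAI2 (32 to 72.4 FPKM).

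Jasmonate genes included a few extreme values. The synthesis and turnover list had 4 of 21 higher and 4 lower (median -0.44), with allene oxide cyclase AOC2 from 0.249 to 24.3 FPKM, while AOC3 went from 12 to 4.79 FPKM. Of the 4 higher genes, 3 could be analysed only because they were higher, with AOC2 among them. In the response list 1 of 21 was higher and 3 lower (median -0.46). The single higher gene was the thionin THI2.2 (AT5G36910, minus strand of chromosome 5, bases 14561743 to 14562863), which went from 2.42 to 791 FPKM and was 327-fold higher. MYC2 (50.01 to 21.4 FPKM), the main activator of the response, and the repressor genes JAZ1 (34.3 to 14.1 FPKM) and JAZ7 (6.06 to 2.4 FPKM) were lower. Salicylate and pathogen defence had 5 of 20 higher and 3 lower, with PR5 from 0.0181 to 5.24 FPKM and the camalexin genes CYP71A12 and PAD3 from 0.789 to 10.2 FPKM and from 0.608 to 5.44 FPKM. PR5 could be analysed only because it was higher, and 1 of the 3 lower genes only because it was lower. PR4, the highest of that list, stood at 274 and 274 FPKM. Of 8 GASA peptide genes, 2 were higher and 3 lower, and AT1G22690 (0.98 to 90.8 FPKM) was the furthest from wild type, with GASA1 at 2561 and 2052 FPKM. GASA6 (134.9 to 292 FPKM) was the other higher gene, AT2G14900 (362 to 174 FPKM), AT5G59845 (6.31 to 2.15 FPKM) and GASA4 were lower, and GASA3 (3.22 and 6.25 FPKM) and GASA5 (2.39 and 1.93 FPKM) were under 2-fold.

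Growth genes were lower in 29 of 217 and higher in 22 (median -0.18), against 9.36% and 17.8% of all analysed genes. Their share of the FPKM sum went from 5.51% to 3.48%. Aquaporins, channels for water in the plasma membrane and tonoplast, were lower in 5 of 24 and higher in 2 (median -0.34). The lower ones were PIP2;4 (662 to 148 FPKM), BETA-TIP (31.6 to 9.56 FPKM), TIP2;3 (953 to 318 FPKM), TIP2;2 (1809.7 to 832 FPKM) and PIP1;5 (1179 to 556 FPKM). Most highly expressed channels were under 2-fold, for instance PIP1C at 2191 and 1513 FPKM, and DELTA-TIP, at 1900.4 FPKM in wild type, is listed at 0 in det1-1 and was not analysed. Pectin and arabinogalactan protein genes were lower in 7 of 38 and higher in 3 (median -0.42), with PME61 from 18.1 to 2.09 FPKM, AGP4 from 1827 to 421 FPKM and AGP22 from 724 to 172 FPKM. Xyloglucan enzymes and expansins were split, 9 of 42 higher and 10 lower: XTH6 went from 0.804 to 148 FPKM and EXPA10 from 10.2 to 49.6 FPKM, but EXPA9 from 174 to 21.1 FPKM and XTH19 from 159.9 to 59.4 FPKM. Tubulins had 1 of 14 lower, TUB1 (139.7 to 36.6 FPKM). Cell cycle and DNA replication genes stayed near wild type, with 3 of 53 higher, 2 lower and a median of -0.07.

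Several secondary wall and xylem genes were lower. Of 22 cellulose synthesis genes, 4 were lower and 0 higher, and the 4 were the secondary wall genes IRX6 (9.33 to 4.15 FPKM), IRX3 (15.5 to 7.17 FPKM), CESA4 (19.5 to 9.18 FPKM) and IRX1 (12.5 to 6.08 FPKM). The synthases of the primary wall were close to wild type, with CESA1 at 154 and 157 FPKM and CESA6 at 84.6 and 77.3 FPKM. In the xylem and phloem list 3 of 20 were lower and 0 higher (median -0.56). The 3 were the xylem protease XCP1 (108 to 44.7 FPKM), the vessel factor VND7 (3.5 to 1.27 FPKM) and the phloem factor NAC045 (5.2 to 2.02 FPKM). Other phloem genes did not share this direction and were under 2-fold. APL (6.06 and 9.53 FPKM), SEOR1 (15.4 and 20.8 FPKM), PP2-A1 (30.5 and 39.8 FPKM) and SUC2 (43.8 and 54 FPKM) were on the high side. AT4G29920 (1.63 and 1.35 FPKM) and AT5G57130 (7.09 and 5.52 FPKM) were on the low side. In whole seedlings, fewer cells of a type and less RNA per cell cannot be told apart.

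The Casparian strip and suberin list had 9 of 22 lower and 2 higher (median -0.62). Lower genes of the Casparian strip, the lignin band around root endodermal cells, included CASP1 (349 to 133 FPKM), CASP4 (72 to 25.8 FPKM), the dirigent protein gene ESB1 (270.3 to 88.2 FPKM), the peroxidase gene PER64 (117 to 41.6 FPKM), the receptor gene GSO1 (17.7 to 6.06 FPKM) and their activator MYB36 (21.2 to 8.33 FPKM). Suberin genes were found on both sides: the elongase gene KCS2 (62 to 23.3 FPKM) and the fatty acyl reductase gene AT5G22500 (158 to 57 FPKM) were lower, GPAT5 stood at 6.39 and 10.6 FPKM and CYP86A1 at 4.34 and 8.49 FPKM, and CYP86B1 (2.68 to 5.73 FPKM) and the activator MYB41 (1.82 to 5.84 FPKM) were higher. Other root genes did not share the lower levels, since the list of root identity and root hairs had 3 of 25 higher and 2 lower (median 0.40). RHD2, the NADPH oxidase of root hairs, went from 49.5 to 289 FPKM, and SHR, which specifies the endodermis, from 18.2 to 9.07 FPKM. Of 15 stomatal lineage genes, 5 were higher and 1 lower, with SCRM2 from 3.12 to 14.4 FPKM, SPCH from 0.362 to 3.45 FPKM and MYB88 from 37.6 to 15.8 FPKM, and 3 of the higher ones, SPCH among them, could be analysed only because they were higher. Trichome genes had 3 of 13 higher and 2 lower, with the repressor of trichome and root hair fate ETC2 from 2.78 to 59.2 FPKM and ZFP5 from 20.4 to 7.29 FPKM.

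**Figure D4:**
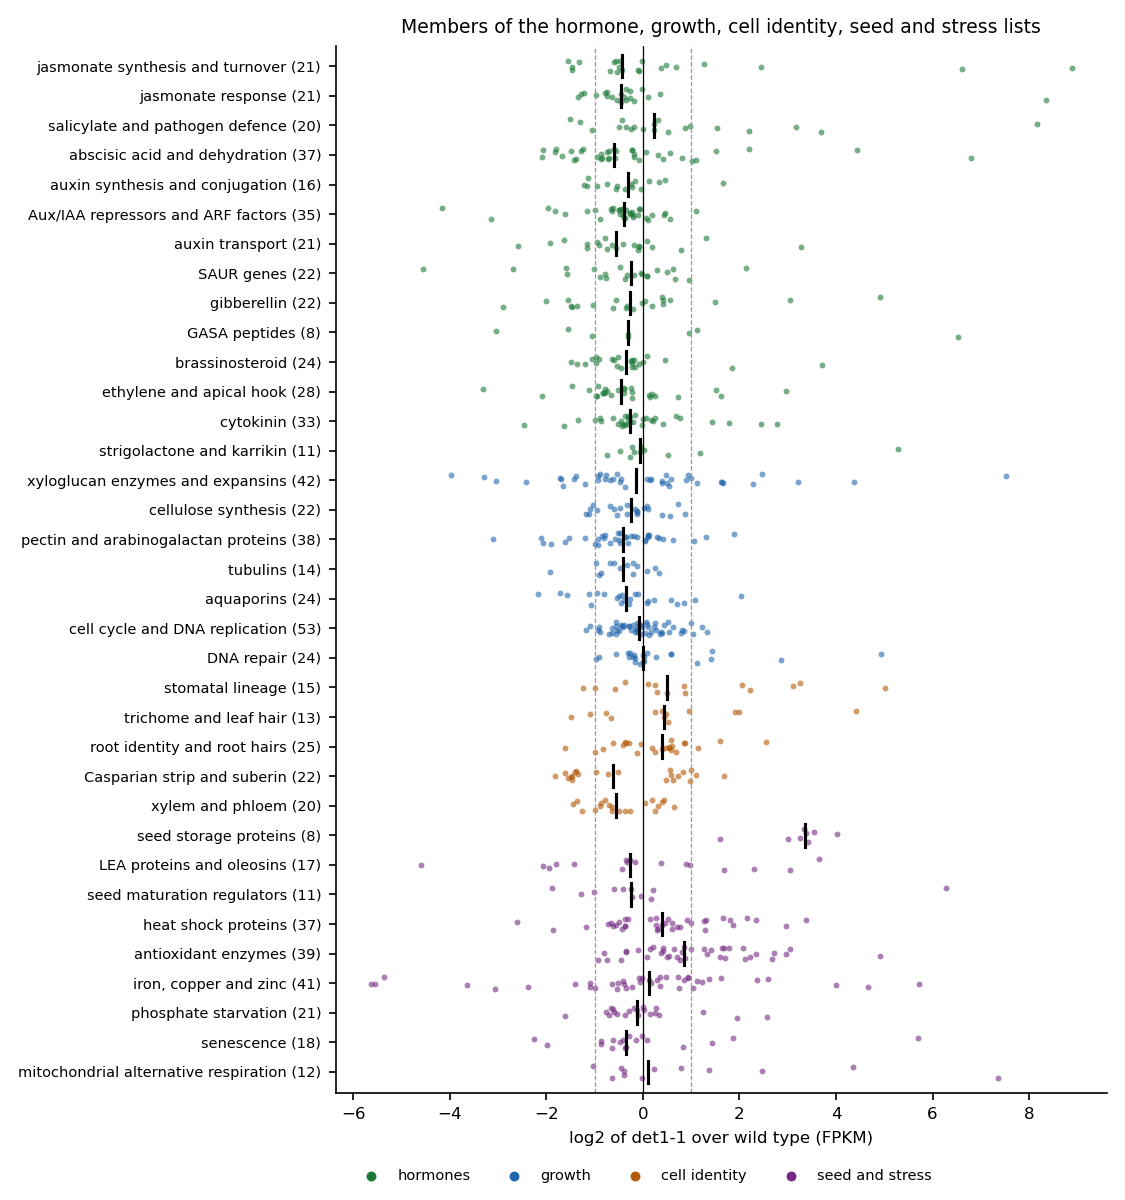
Log2 ratio of det1-1 over wild type (x axis) for each analysed member (point) of the hormone, growth, cell identity, and seed and stress lists, with the number of members in brackets. Thick bars are list medians and dashed lines mark 2-fold. The medians of the hormone and growth lists lie between -0.59 and 0.24, that of the Casparian strip and suberin list is -0.62, and all 8 seed storage genes lie above 1.6.

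Lipid transfer proteins included the largest loss in FPKM of all analysed genes. LTP2, a cuticle protein of the epidermis (AT2G38530, plus strand of chromosome 2, bases 16128176 to 16129399), went from 8903 to 2685 FPKM. Of 12 genes in the list, 3 were lower and 5 higher: LTP3 (91.7 to 10.5 FPKM) and LTP4 (66.7 to 7.26 FPKM) were lower, and DIR1 (59.1 to 829 FPKM) and LP1 (187 to 1704 FPKM) were higher. Other large losses in FPKM were those of the peroxiredoxin gene TPX2 (4297 to 659.99 FPKM), which overlaps AT1G65960 and is 24.8% repeated, the dormancy-associated DYL1 (4326 to 775 FPKM), GASA4 (3642 to 440.4 FPKM) and carbonic anhydrase CA2 (2945 to 689 FPKM). The largest gain was that of the plastid gene ATCG00020, from 9270.4 to 39981 FPKM.

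The list of iron, copper and zinc genes had 10 of 41 higher and 9 lower (median 0.13). Of these, 4 higher and 4 lower genes, with FRO2, FRO6 and YSL1 among them, could be analysed only through the group where they were high. Over the 31 members that reached 5 FPKM, 7 were higher and 5 lower, and the median was -0.03. Lower members included the transporter IRT2 (52.9 to 6.31 FPKM), the root ferric reductase FRO2 (2.81 to 0.224 FPKM), their activator FRU (6.98 to 3.27 FPKM) and the helix-loop-helix gene BHLH101 (8.33 to 1.59 FPKM). FRO6, a ferric reductase of green tissue, went from 0.47 to 24.6 FPKM, YSL1, which moves iron-nicotianamine, from 0.414 to 6.64 FPKM and the ferritin gene FER3 from 15.7 to 47.9 FPKM. The iron-sulfur protein gene NEET, in no list, was 163-fold higher (2.79 to 455 FPKM).

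Antioxidant enzymes were higher in 17 of 39 and lower in 0 (median 0.86). The members with the largest ratios encode plastid proteins, among them the thioredoxins TRXF1 (6.08 to 183 FPKM) and TRXF2 (9.9 to 77.6 FPKM), which activate Calvin cycle enzymes, the peroxiredoxin PRXQ (22.9 to 189 FPKM) and the reductase NTRC (11.2 to 71.5 FPKM). The thylakoid peroxidase gene TAPX went from 24.7 to 79.3 FPKM. Cytosolic APX1 and CSD1 were under 2-fold, with APX1 at 436 and 484 FPKM and CSD1 at 364 and 189.96 FPKM, as was catalase CAT3 (3390.1 and 1932 FPKM). Heat shock proteins were higher in 11 of 37 and lower in 3, led by CR88, the plastid HSP90 (9.72 to 101 FPKM). Mitochondrial alternative respiration had 4 of 12 higher and 1 lower, with the NADH dehydrogenase NDA1 from 0.149 to 24.4 FPKM and the alternative oxidase AOX1A from 19 to 49.2 FPKM. Of the 4, 2 could be analysed only because they were higher, NDA1 among them. DNA repair was centred on 0 with 5 of 24 higher, and the member furthest from wild type was the photolyase gene AT1G12370 (0.221 to 6.72 FPKM). Senescence had 3 of 18 higher and 2 lower, with SAG13 from 0.867 to 45.2 FPKM and SAG20 from 563 to 117 FPKM, and phosphate starvation had 3 of 21 higher and 1 lower, with the plastid phosphate transporter PHT2;1 from 13.3 to 79 FPKM.

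All 8 analysed storage protein genes were higher (median 3.36), but their levels were low: their sum went from 10.9 to 105 FPKM, 2 of them could be analysed only because they were higher, and the median was 1.23 with 5 FPKM added. The 2S albumin genes were SESA1 (0.781 to 7.86 FPKM), SESA2 (1.12 to 18.02 FPKM), SESA3 (1.25 to 11.9 FPKM), SESA4 (0.456 to 3.66 FPKM) and SESA5 (0.925 to 9.64 FPKM). The globulin genes were CRU2 (0.178 to 1.92 FPKM), CRU3 (3.79 to 44.3 FPKM) and PAP85 (2.39 to 7.27 FPKM). LEA proteins and oleosins were higher in 4 of 17 and lower in 5 (median -0.27). The oleosin gene OLEO3 (84.4 to 3.51 FPKM) and LEA7 (99.6 to 23.8 FPKM) were lower, and M17 (3.96 to 32.6 FPKM) was higher. Among 11 seed maturation regulators, 1 was higher and 3 lower: DOG1, which sets dormancy, went from 0.105 to 8.23 FPKM, and SOM (36.4 to 9.86 FPKM), AFP3 (105 to 52.1 FPKM) and ABI5 (7.13 to 2.92 FPKM) were lower. DOG1 could be analysed only because it was higher.

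Genes of leaf form and flowering were found on both sides. The leaf growth list had 5 of 20 higher and 3 lower. TCP10 (2.18 to 11.3 FPKM), TCP4 (4.22 to 21.5 FPKM), TCP3 (5.04 to 20.4 FPKM) and TCP2 (3.26 to 12.4 FPKM), the class of TCP factors that limits leaf growth, were all higher. The growth-regulating factors divided: GRF7 (AT5G53660, plus strand of chromosome 5, bases 21794177 to 21796092) went from 26.6 to 0.394 FPKM, GRF6 from 1.71 to 0.32 FPKM and GRF2 from 9.72 to 3.01 FPKM, while GRF3 stood at 9.44 and 14.2 FPKM. GRF7 and GRF6 were under 0.5 FPKM in det1-1. YAB5 (2.87 to 28.2 FPKM) and AFO (8.83 to 52.8 FPKM), which mark the lower side of lateral organs, were the 2 higher members of 14 shoot meristem regulators. Flowering regulators were higher in 6 of 14 and lower in 2 (median 0.68), with LFY from 0.107 to 9.25 FPKM, SPL9 from 0.237 to 4.06 FPKM and the repressor SVP from 4.78 to 23.3 FPKM among the higher and the repressor FLC (32.6 to 7.005 FPKM) among the lower. Wild type held under 0.5 FPKM of LFY, SPL9 and SPL3, so that only a higher level could admit them.

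Proteasome genes were mostly under 2-fold, whereas ribosome biogenesis genes were higher more often than all analysed genes. The shares over all analysed genes were 17.8% higher and 9.36% lower. Both lists had medians above 0. Cytosolic and nucleolar ribosome biogenesis genes were higher in 10 of 25 and lower in 0 (median 0.82), with nucleolin NUC-L1 from 78.7 to 219.7 FPKM, NOP56 from 22.3 to 56.8 FPKM and the dyskerin NAP57 from 19.4 to 49.1 FPKM, all parts of the nucleolar machinery that processes and modifies ribosomal RNA. TOR, the kinase that promotes growth, stood at 13.3 and 7.95 FPKM. Of 109 proteins named ribosomal, cytosolic and organelle together, 45 were higher and 0 lower (median 0.92). Proteasome subunits lay within narrow bounds, with 33 of 36 between a log2 ratio of 0 and 1 and 1 past 2-fold (PAD1, 48.1 to 101 FPKM). Their median was 0.46, and 0.28 after rescaling outside the photosynthesis lists.

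Small nucleolar RNAs, most of which guide modification of ribosomal RNA, were higher in 39 of 60 and lower in 3 (median 1.35). Their share of the FPKM sum went from 1.29% to 2.55%. AT3G01316 went from 8.78 to 218 FPKM and AT2G43141 from 34 to 633 FPKM, and the most abundant in wild type, AT3G47347, went from 1045 to 3468 FPKM. Of the 44 that overlap no other annotated gene, 30 were higher and 1 lower (median 1.33). Some lie in the same stretch, as AT2G43137, AT2G43138, AT2G43139 and AT2G43141 do, which all overlap AT2G43110. The genes counted are therefore not all separate observations. MicroRNA precursors were found on both sides, with 11 of 45 higher and 16 lower (median -0.60), against 17.8% and 9.36% of all analysed genes. In the 37 without an overlap, 9 were higher and 13 lower (median -0.14). MIR171b, the most abundant, went from 149 to 68.6 FPKM, MIR158a from 65.7 to 20.7 FPKM and MIR157c from 0.324 to 13.2 FPKM. MIR319a, whose product targets TCP genes of the class above, went from 2.89 to 1.37 FPKM, while MIR319b of the same family stood at 2.87 and 2.22 FPKM. The levels of MIR396b and MIR396a, whose product targets GRF genes, went from 5.75 to 1.23 FPKM and from 1.7 to 0.673 FPKM. These precursors and most of the small nucleolar RNAs are short, so FPKM, which divides by length, rests on few bases. A library for long RNA does not measure the mature microRNA.

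**Figure D5:**
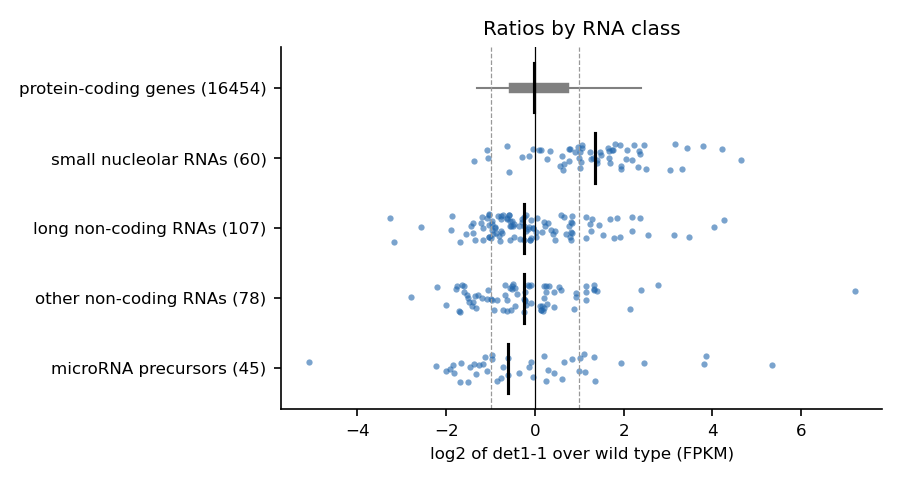
Log2 ratio of det1-1 over wild type (x axis) by annotated RNA class, with the number of genes in brackets; points are genes, thick vertical bars are medians, dashed lines mark 2-fold, and the grey bars for protein-coding genes span the 5th to 95th and 25th to 75th percentiles. The small nucleolar RNAs are centred at 1.35 and the microRNA precursors at -0.60, against -0.01 for protein-coding genes.

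Across 224 product families of at least 10 analysed genes, the highest medians were those of photosystem I subunits (10 of 10 higher, 2.96), cysteine-rich receptor-like kinases (9 of 14 higher, 2.27) and plastid transcriptionally active proteins (9 of 10 higher, 1.80). For the kinases, 5 of the 9 could be analysed only because they were higher, and the median was 1.09 with 1 FPKM added. Pseudouridine synthases, which modify RNA, were higher in 7 of 15 with 0 lower. The lowest medians were those of dirigent-like proteins (9 of 19 lower and 3 higher, -0.96), laccases (5 of 10 lower and 0 higher, -0.84) and Cys/His-rich C1 domain proteins (30 of 68 lower and 7 higher, -0.79). With 1 FPKM added, the median of the C1 domain proteins was -0.44. Dirigent proteins and laccases both act in lignin formation.

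Of the genes with the largest ratios among those of at least 20 FPKM, several belong to none of the lists. FADA, a fatty acid desaturase, went from 0.34 to 74.7 FPKM, AT5G62210, an embryo-specific protein 3 homolog, from 0.231 to 53.4 FPKM, and the phosphoglucomutase-like AT1G70820 from 0.109 to 23 FPKM. In the other direction stood the CAP family gene AT4G07820 (261 to 16.3 FPKM), the lipid-transfer-like AT2G37870 (379 to 29.6 FPKM) and the C2-domain gene AT4G11610 (28.4 to 1.17 FPKM). FADA overlaps AT4G27040, PSBR overlaps AT1G79050 and GRF7 overlaps AT5G08015. In the annotation 5240 of the analysed genes overlap another gene and 675 are over 10% repeated, and 134 of the 432 genes named by rule have either property. Strand handling is not given in the sources used here, so reads of overlapping or antisense partners could not be told apart for them.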

How the data were processed

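Whole dark-grown seedlings of wild type and det1-1 were measured by RNA-seq, with 3 libraries each. The authors deposited a single FPKM value per gene and group, together with their own log2 ratio; per the submitters' processing notes, TopHat and Cufflinks were among the tools and TAIR10 was the genome. Versions, the handling of strand and the way the 3 libraries were combined are not given in the sources used here. Their log2 ratio served only to see which genes the authors had compared. Tests over libraries had been planned, and none could be run on these values. No fragment counts are given, so the depth behind each value is unknown.

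From the FPKM values, log2 of det1-1 over wild type was computed with no pseudocount for genes with a single entry, both groups above 0 and the higher at 1 FPKM or more. Calls are at 2-fold. Locus identifiers were matched to the RefSeq annotation of TAIR10.1, and 67 analysed genes were not in it; symbols, positions, overlaps and promoters come from there. Of 2191 symbols given in 79 gene lists, 2108 matched. The members and lists were chosen with earlier results of these data known.

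A rule picked 432 genes for naming, of which the text prints a part: regulators of dark growth, the 12 largest ratios each way at 20 FPKM or more, the 8 largest differences in FPKM each way, in each list up to 4 called members with the largest ratios at 5 FPKM or more and the member highest in wild type, whole lists of up to 8, and 2 members of each named product family. Any other gene named was chosen after its values were seen. Alternatives were pseudocounts of 1 and 5 FPKM, other minimums and folds, 3 rescalings, and leaving out repeated genes. The 2-fold calls were tested on simulated data, in which the added differences lay past the 2-fold line and the noise was small. That run checks the code and not the spread between libraries, and medians were not part of it. Python 3.11.15, numpy 2.4.6, pandas 2.3.3, scipy 1.17.1 and matplotlib 3.10.9 were used.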

Additional observations from a re-analysis of the deposited data

Results flagged for a closer look

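A signal appeared in 4 short RNA genes that were listed at 0 in wild type and stood above 20 FPKM in det1-1, and were therefore outside the analysed genes. The precursor gene MIR398b was at 64.4474 FPKM, the small nucleolar RNA gene AT2G35742 at 95.7355 FPKM, the alanine tRNA gene AT2G22580 at 37.2474 FPKM and the proline tRNA gene AT1G28730 at 31.3536 FPKM. An exact 0 in a table without counts can be a failed estimate, so no fold is given, and whether these RNAs were absent in wild type was not tested.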

How the results depend on the processing

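The counts of called genes depended on the settings more than the list medians did. Against 3022 higher and 1589 lower genes, adding 5 FPKM to both groups gave 1591 and 595, and a 3-fold call gave 1744 and 542. A 1.5-fold call gave 4532 higher and 3503 lower genes, and dropping the 1 FPKM minimum gave 3983 and 2485, so that 56.4% and 61.6% of the calls were higher, against 65.5%. The photosynthesis lists held 1.61% of the wild type sum, and 2.54% with members listed at 0 in a single group. Of product families, 7 had a median of at least 1, 3 with 5 FPKM added and 4 when the higher group had to reach 5 FPKM. The alternatives for product families, promoter motifs and shares of the FPKM sum were chosen after seeing the data. Of 79 list medians, 2 moved by at least 1.5-fold with 1 FPKM added and 4 with 5 FPKM added. These were flavonoid enzymes (1.77 and 1.07), seed storage proteins (2.39 and 1.23), and, with 5 FPKM only, tocopherol (1.26) and starch (0.73). The antenna median was 2.96 over genes whose dark wild type value was within 1.5-fold in the light table. Of 432 named genes, 5 lost their call with 1 FPKM added, 63 with 5 FPKM added, and 12 after rescaling outside the photosynthesis lists, which gave 7 others a call.

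No paired analysis was possible because the table holds 1 value per group, and leaving out single replicates was not run for the same reason. Genes with a deposited comparison were taken as those whose deposited log2 ratio is not 0, since the table gives no test status.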
